A study of Drosophila melanogaster with 2 samples.

Results

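The 9 genes described here encode the core of the Drosophila DNA damage checkpoint: p53, mei-41, tefu, lok, grp, mus304, nbs, mre11 and rad50. They were taken as a list of names, out of 13968 protein-coding genes of the annotation. For each of them, every deposited summit inside the gene or within 2 kb of it was collected on the dm6 assembly. The summits are those of CHES-1-like, a DNA-binding protein of the forkhead family. It was mapped by chromatin immunoprecipitation and sequencing (ChIP-seq) with an antibody to GFP, in whole embryos of a transgenic line that carries CHES-1-like with GFP at its C terminus. The embryos were 0 to 24 h old and of both sexes. The 2 samples are biological replicates 2 and 3 of this 1 group, from separate biosamples of 1 line. There is no second condition, so no test between samples was made.

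When DNA breaks or replication stalls, sensor complexes load onto the lesion and activate large kinases, which switch on smaller effector kinases. The mei-41 product is the fly ATR kinase and acts with the mus304 product, the fly ATRIP. The tefu product is the fly ATM kinase and is activated by the complex of the mre11, rad50 and nbs products. The grp and lok products are the effector kinases Chk1 and Chk2, and p53 is a transcription factor that activates apoptosis genes after damage. In the early fly embryo, mei-41 and grp also slow the rapid nuclear divisions before the midblastula transition, and tefu and the mre11 complex also protect telomeres.

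CHES-1-like summits stood at 8 of the 9 checkpoint genes in the thresholded list, and rad50 was the exception. The thresholded list is the authors' set of 4599 summits that passed the irreproducible discovery rate procedure, and it gave these genes 13 summits. Of all protein-coding genes, 40.3% (5627 of 13968) had such a summit in the gene or within 2 kb. At the transcription start site (TSS), meaning within 500 bp of it, 7 of the 9 genes had a thresholded summit, against 25.9% (3624 of 13968) of all protein-coding genes. The genes without one at the TSS were mre11 and rad50. Of the 9 genes, 6 were shorter than 5 kb and 5 of those had a summit in their window, against 35.6% of all protein-coding genes of that size. The 9 windows held 0.138 thresholded summits per kb over 94.0 kb, against 0.0423 per kb over the windows of all protein-coding genes. No set test was made, so these counts describe the 9 genes and show nothing particular to them. In whole embryos, weak occupancy in many cells and strong occupancy in few cannot be told apart.

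At 6 genes the strongest summit lay 64 to 307 bp in front of the TSS. For mei-41, mus304, tefu and nbs it stood in a gap of 229 to 451 bp between that TSS and the TSS of a neighbour on the opposite strand. Only grp had summits inside the gene, 3 of them, and the other 10 summits lay outside the gene they were counted for. Of the 13, 12 lay within 500 bp of the TSS of some protein-coding gene, against 62.9% of all 4599 thresholded summits. The nearest TSS was that of the checkpoint gene for 5 of the 13. When each summit was given to the nearest TSS and to no other gene, 4 of the 9 genes had one, namely nbs, p53, mei-41 and grp, against 24.4% of all protein-coding genes. Another gene's TSS stood within 1 kb of a TSS in 8 of the 9 genes, and 7 of these 8 had a thresholded summit at a TSS, against 41.3% of all protein-coding genes with such a neighbour. By annotation 5 of the 13 lay between protein-coding genes, against 39.6% of all thresholded summits, and 4 in introns, against 36.8%. The 5′ UTRs held 3, against 19.2%, a non-coding exon 1, against 2.26%, and coding sequence 0, against 1.09%.

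**Figure D1:**
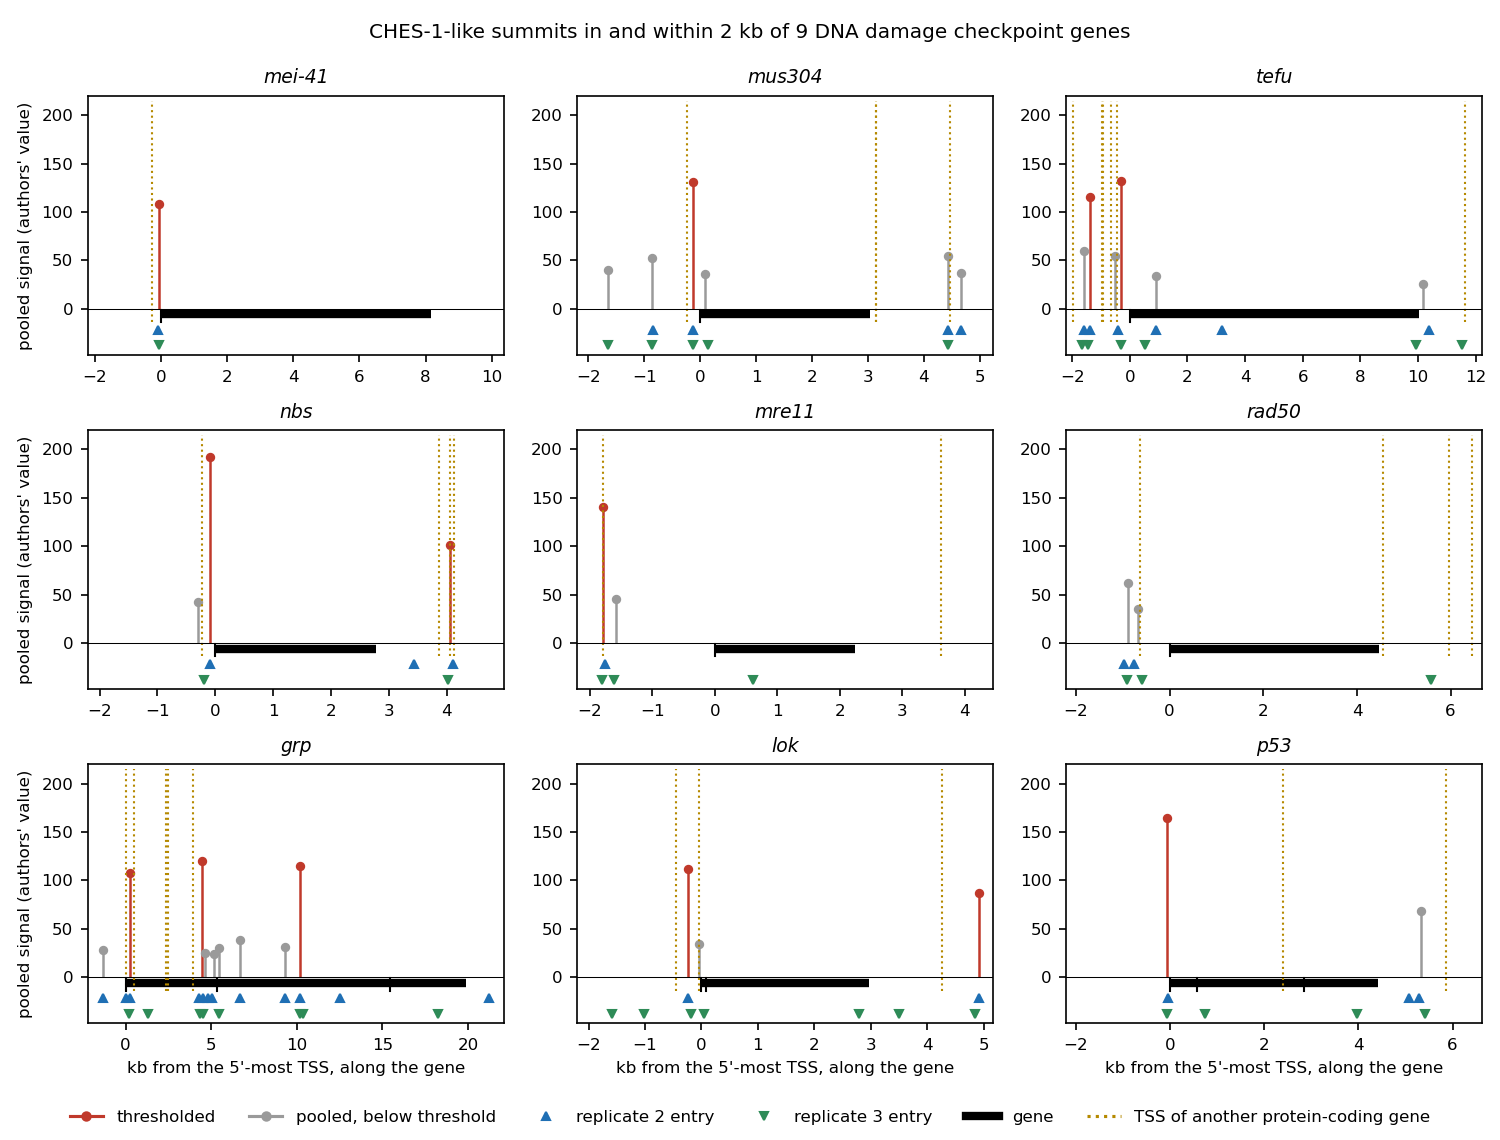
Positions of summits at the 9 checkpoint genes, in kb along each gene from its 5′-most TSS (x axis), against the authors' signal in the pooled list (y axis). Red stems are thresholded summits, grey stems are pooled entries below the threshold, triangles under the gene are entries of replicates 2 and 3, short black ticks are TSSs of the gene and dotted lines are TSSs of other protein-coding genes. Red stems stand just in front of mei-41, mus304, tefu, nbs, lok and p53, inside grp, and 1783 bp in front of mre11, while rad50 has grey stems only.

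The bases under 7 of the 13 summits are shown because they are the stretches in front of 6 genes and the one site far from any TSS. Each line gives the part of the window reaching 100 bp to either side of its summit left after annotated UTRs were taken out, 5′ to 3′ on the plus strand of dm6, from the RefSeq sequence of release 6. Capitals mark matches, on either strand, to any of 6 motifs. Matches in bases not shown are counted below. The motifs are the forkhead site (ATAAACA and the variant ACAAACA, or GTAAACA and its variant GCAAACA), the DRE bound by DREF (TATCGATA) and its core (ATCGAT), the Motif 1 core bound by M1BP (GGTCACACT), the E2F site (TTTCCCGC and the variant TTTCGCGC, or TTTGCCGC and its variant TTTGGCGC) and GAGAG. The DRE core overlaps the DRE by construction.
p53 start, chr3R:23054083-23054255, plus strand: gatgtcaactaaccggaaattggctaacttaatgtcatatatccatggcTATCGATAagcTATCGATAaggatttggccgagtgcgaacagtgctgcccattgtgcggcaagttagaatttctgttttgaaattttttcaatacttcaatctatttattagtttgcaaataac
mei-41 and TH1, chrX:16391534-16391697, plus strand: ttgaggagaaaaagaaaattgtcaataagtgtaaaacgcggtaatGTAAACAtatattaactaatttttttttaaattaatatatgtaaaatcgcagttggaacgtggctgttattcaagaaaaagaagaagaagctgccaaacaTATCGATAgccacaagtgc
nbs and defl, chr3L:9723195-9723393, plus strand: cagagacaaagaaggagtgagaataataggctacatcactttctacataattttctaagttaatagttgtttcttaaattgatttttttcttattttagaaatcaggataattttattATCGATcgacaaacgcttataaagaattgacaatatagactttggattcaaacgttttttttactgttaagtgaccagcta
lok and barr, chr2L:20061082-20061185, plus strand: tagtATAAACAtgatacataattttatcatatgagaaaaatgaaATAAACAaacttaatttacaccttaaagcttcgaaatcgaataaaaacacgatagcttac
mus304 and Polr3D, chr3L:18109580-18109780, plus strand: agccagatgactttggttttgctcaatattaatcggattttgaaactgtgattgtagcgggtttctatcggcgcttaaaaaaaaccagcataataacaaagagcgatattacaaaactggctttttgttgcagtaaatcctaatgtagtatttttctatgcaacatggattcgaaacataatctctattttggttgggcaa
tefu and Hsc70-4, chr3R:15242443-15242643, plus strand: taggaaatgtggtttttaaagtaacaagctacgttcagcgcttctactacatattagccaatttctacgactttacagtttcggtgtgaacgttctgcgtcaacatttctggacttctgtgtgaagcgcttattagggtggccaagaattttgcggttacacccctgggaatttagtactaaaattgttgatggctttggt
grp intron, chr2L:16690118-16690318, plus strand: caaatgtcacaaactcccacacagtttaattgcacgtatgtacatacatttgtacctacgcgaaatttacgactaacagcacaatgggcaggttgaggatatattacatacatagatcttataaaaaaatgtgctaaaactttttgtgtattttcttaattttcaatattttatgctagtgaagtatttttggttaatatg

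The p53 start carried 2 copies of the DRE, the nearer 5 bp from the summit. The DRE is an element of promoters of many genes of growth and replication. The window in front of mei-41 held 1 DRE, 45 bp from its summit, and the gap between nbs and defl held the DRE core alone, 20 bp from its summit. A full DRE thus stood in 2 of the 13 windows of 201 bp, against 6.76% of all 4599 thresholded windows, 12.2% of windows at TSSs with a thresholded summit within 500 bp, and 6.44% of windows of that length centred on the 19275 protein-coding TSSs. The DRE core stood in 3 of the 13 windows, against 16.6%, 25.8% and 16.4% in the same order. The forkhead site stood in 6 of the 13 windows, against 29.4% of all thresholded windows, 28.1% at TSSs with such a summit, and 23.5% of all TSS windows. It was found at the second tefu summit, both lok summits, the first and second grp summits and mei-41, and the nearest match lay 13 to 53 bp from the summit. The forkhead count depended on the width: with 50 bp on each side it was 2 of 13 windows, against 16.3% of all thresholded windows, and with 250 bp it was 11 of 13, against 57.3%. The Motif 1 core stood in none of the 13 windows, against 4.26% of all thresholded windows and 4.42% of TSS windows. The E2F site stood in 1 window, the second of lok, against 4.31% and 4.77%, and GAGAG in 1 window of grp, against 24.2% and 25.0%. None of the 6 motifs was found in the windows of mus304, mre11, the first tefu summit, the second nbs summit or the grp intron. G and C made up 27.9% to 46.3% of the 13 windows with a median of 38.8%, the same median as over all thresholded windows.

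The ATR branch had 1 thresholded summit at each of its genes, both in gaps between opposed starts. At mei-41 (FBgn0004367; X, 16391698 to 16399850, plus strand) the summit at 16391634 lay 64 bp upstream of its TSS and 196 bp upstream of that of TH1, a subunit gene of the elongation factor NELF. Its signal was 74.0 in replicate 2, where it ranked 2313, and 33.2 in replicate 3, where it ranked 5865 of 30000. In the pooled list it had a signal of 107.7 and rank 3150. Signals are the authors' own and each is on the scale of its list, so only ranks are set against each other. The deposited −log10 q-value of mei-41 was 1.98 in replicate 3, whereas it was at the list's highest value of 3.98 in replicate 2. Among the best 4599 entries of replicate 3 alone, mei-41 had none. No other entry of any list fell in the mei-41 window. At mus304 (FBgn0002901; 3L, 18109814 to 18112847, plus strand) the summit at 18109680 lay 134 bp upstream of its TSS and 106 bp upstream of that of Polr3D, a subunit gene of RNA polymerase III. It had a signal of 73.9 and rank 2323 in replicate 2, a signal of 44.5 and rank 3656 in replicate 3, and rank 2247 in the pooled list. The replicate summits lay 0 and 3 bp from the pooled one.

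The ATM kinase gene shared its summits with a chaperone gene. At tefu (FBgn0045035; 3R, 15232212 to 15242236, minus strand) the first thresholded summit, at 15242543, lay 307 bp upstream of its TSS and 144 bp upstream of that of Hsc70-4, which encodes a constitutively expressed chaperone. It ranked 1595 in replicate 2 (signal 90.4), 2792 in replicate 3 (signal 51.8) and 2213 in the pooled list (signal 132.5). The summit of replicate 2 lay 90 bp from the pooled one, that of replicate 3 only 3 bp. A second thresholded summit, at 15243629, lay in an intron of Hsc70-4, 1393 bp from the tefu TSS, and ranked 3633 in replicate 2, 3048 in replicate 3 and 2777 in the pooled list. Within the tefu gene itself no thresholded summit was found, and its pooled entry there, at 15241334, ranked 17718.

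The 3 genes of the complex that activates ATM differed most among themselves. The strongest summit of all 9 genes was that of nbs (FBgn0261530; 3L, 9720414 to 9723194, minus strand), at 9723293, between nbs at 99 bp and the opposed TSS of defl, an Integrator subunit gene, at 130 bp. It ranked 1340 in replicate 2 (signal 98.7), 944 in replicate 3 (signal 90.6) and 1083 in the pooled list (signal 192.3), first among the 9 genes in each list. A second summit within the window, at 9719136, lay past the 3′ end of nbs, 8 bp from the TSS of CG18178, with a pooled rank of 3458. For mre11 (FBgn0020270; 2L, 11282090 to 11284335, plus strand) the summit at 11280307 belonged by position to Ppt2, a palmitoyl-protein thioesterase gene on the same strand. It lay 9 bp downstream of the Ppt2 TSS and 1783 bp upstream of the mre11 TSS. Ranks were 2974 in replicate 2 (signal 64.1), 1336 in replicate 3 (signal 77.5) and 1960 in the pooled list (signal 141.0). The mre11 start had no entry within 500 bp in the pooled list. For rad50 (FBgn0034728; 2R, 22421013 to 22425482, plus strand) the best pooled entry, at 22420123, lay 890 bp upstream of its TSS, inside the coding sequence of mRpS29, a mitochondrial ribosomal protein gene. It had rank 7062 in the pooled list with a signal of 62.4, where the thresholded list ended at rank 4599 and a signal of 84.2. In replicate 2 it ranked 6064 with a −log10 q-value of 2.69, and in replicate 3 it ranked 12638 with one of 0.587, which does not reach a q-value of 0.05. A site below the threshold is not thereby shown to be unbound.

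The effector kinase genes carried 5 of the 13 summits. At grp (FBgn0261278; 2L, 16680054 to 16699926, plus strand), which has 3 TSSs and shares the first with squ, a germ line gene, there were 3 thresholded summits in a gene of 19873 bp, and 4.51% of all protein-coding genes had 3 or more. The 4.51% is over genes of all lengths, and no share for genes as long as grp was computed. The 3 summits lay at 16680289, 235 bp downstream of the shared TSS, at 16684506 in a 5′ UTR exon of grp, and at 16690218 in an intron. The second was nearest to the TSS of CG31807, 498 bp upstream of it, and lay 884 bp upstream of the second grp TSS. The third lay 4828 bp downstream of that grp TSS. Pooled ranks were close together, at 3151, 2639 and 2802. The first ranked 4144 in replicate 2 and 1919 in replicate 3, and the third ranked 3504 in replicate 2 and 2991 in replicate 3. The second was matched at 62 bp by rank 4564 in replicate 2 and at 86 bp by rank 7897 in replicate 3. The strongest entries within 250 bp of it ranked 2494 and 2859, so its rank in the replicates depends on the matching rule. At lok (FBgn0019686; 2L, 20061422 to 20064381, plus strand) the summit at 20061182 lay 240 bp upstream of its TSS, within an intron of barr, a condensin subunit gene transcribed away from it. It ranked 4484 in replicate 2 (signal 49.4), 1932 in replicate 3 (signal 64.0) and 2945 in the pooled list (signal 111.9). The second lok summit, at 20066343, lay 1962 bp past the 3′ end and 48 bp upstream of bwa, just inside the window of 2 kb, and with a pooled rank of 4335 and signal of 87.2 it was also the weakest of the 13.

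The p53 gene had 1 summit, at its own first start. At p53 (FBgn0039044; 3R, 23049657 to 23054082, minus strand) it lay at 23054155, 73 bp upstream of the TSS, in an exon of the antisense RNA gene asRNA:CR46089 and with no other protein-coding TSS within 1 kb of the summit. The deposited region was 108 bp wide, against a median of 430 bp over the thresholded list. Ranks were 1667 in replicate 2 (signal 88.3), 1513 in replicate 3 (signal 73.2) and 1466 in the pooled list (signal 164.2), the closest match between replicates among the 9 genes. The gene has 3 TSSs, and this was the only thresholded summit in its window. The other pooled entry there, past the 3′ end at 23048756, ranked 6180.

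Every one of the 13 summits had a counterpart within 100 bp in both replicate lists, against 97.5% of all thresholded summits in replicate 2 and 96.4% in replicate 3. This is high by construction, since the thresholded list was derived from the replicate lists. All 13 counterparts in replicate 2 and 12 of 13 in replicate 3 had a q-value under 0.05, and 11 of the 13 ranked within the first 4599 of both. The median distance between summits was 13 bp for replicate 2 and 22 bp for replicate 3. The order of the 9 genes was less firm. By best pooled peak it ran nbs, p53, mre11, tefu, mus304, grp, lok, mei-41 and rad50. Of the 8 pairs of neighbours in that order, 4 kept it in both replicates by the counterparts within 100 bp, namely nbs before p53, tefu before mus304, mus304 before grp, and mei-41 before rad50. By the strongest entry within 250 bp, grp (2859) came before mus304 (3656) in replicate 3, so the order of mus304 and grp turned with the matching rule. The others (p53 and mre11, mre11 and tefu, grp and lok, lok and mei-41) changed places in at least 1 replicate, so their pooled order was not kept in both replicates. The pair of grp and lok changed places in both, where the rank of grp depends on the matching rule given above.

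**Figure D2:**
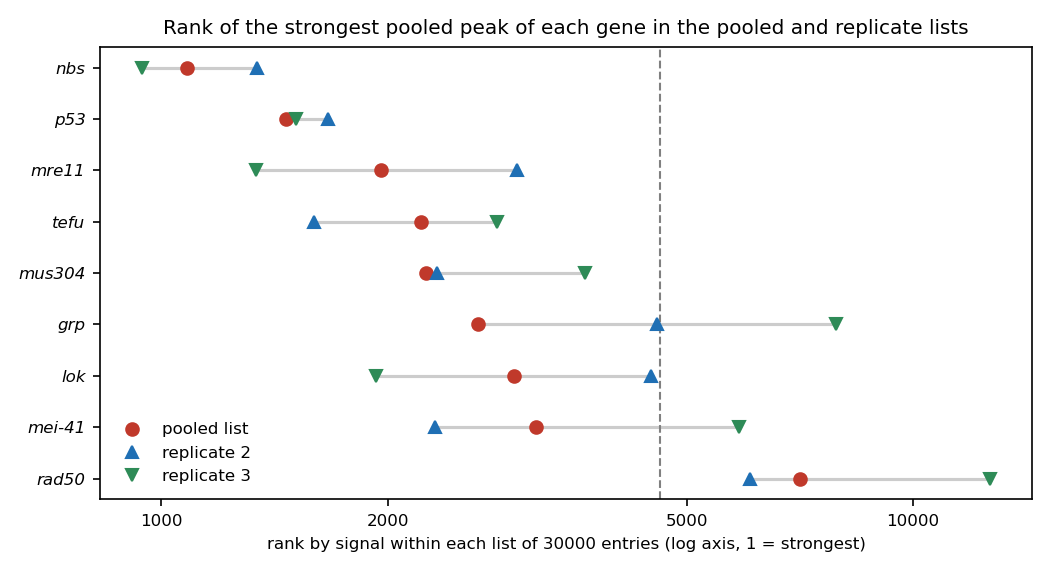
Rank of the strongest pooled peak of each checkpoint gene (log axis, 1 is the strongest of 30000) in the pooled list and of its counterpart within 100 bp in replicates 2 and 3. The dashed line marks rank 4599, the length of the thresholded list. Each of the 9 genes has 1 row, nbs holds the highest rank in all lists, and rad50 lies past the line in all of them. The replicate 3 points of grp and mei-41 also lie past the line.

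Among all thresholded summits, those of the checkpoint genes were of middle strength. The 13 signals had a median of 115.9 (range 87.2 to 192.3), against a median of 130 over the thresholded list (range 84.2 to 2442), and 5 of the 13 lay above the list's median. No checkpoint gene had a summit among the 1000 strongest.

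**Figure D3:**
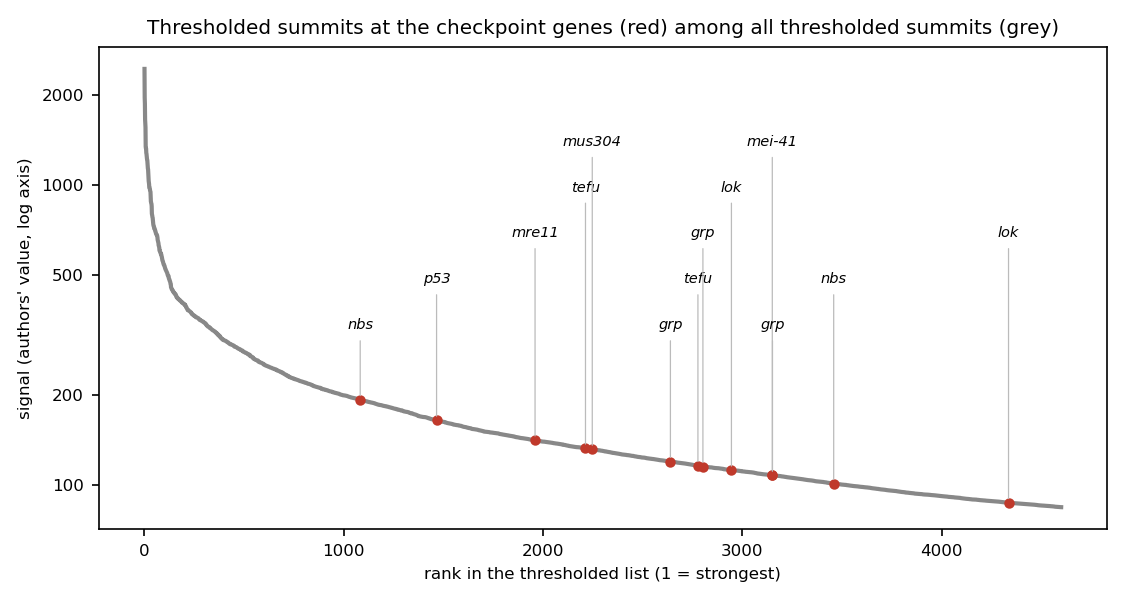
Authors' signal (log axis) against rank for all 4599 thresholded summits (grey line) and for the 13 summits at checkpoint genes (red points, named). The red points run from rank 1083 for nbs to rank 4335 for lok, and none lies on the steep part at the left.

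Other genes of the damage response were counted in the same way, as 9 lists by role with 74 of 75 listed names found in the annotation. Together 43 of the 74 had a thresholded summit in the gene or within 2 kb (58.1%) and 28 of 74 at a TSS (37.8%), against 40.3% and 25.9% of all protein-coding genes, the shares to read every count below against. Among genes that load the sliding clamp and amplify the signal, 6 of 10 had one and 2 of 10 at a TSS. The strongest were at His2Av, the histone variant phosphorylated at breaks (rank 323, 60 bp from the TSS of ball), Hus1-like, a clamp subunit (rank 1532, nearest to ctrip), and Claspin, an adaptor for Chk1 (rank 2433, 38 bp from its own TSS). The 3 replication protein A genes, whose products coat single-stranded DNA, had none.

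Among cell cycle genes on which the checkpoint acts, 5 of 8 had a summit at a TSS. The strongest peaks in their windows were at CycB, the mitotic cyclin B gene (rank 45, past its 3′ end and 3332 bp from its TSS), fzr, an activator of the anaphase-promoting complex (rank 70, but nearest to CG3009), and Wee1, a kinase that inhibits Cdk1 (rank 1565, 9 bp from its TSS). The phosphatase genes stg and twe, which encode Cdc25 proteins that Chk1 restrains, had none. Their best pooled entries ranked 5517 and 6221.

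Of the p53 target and apoptosis genes, 6 of 10 had a summit, 4 of them at a TSS. Sesn, a stress-induced gene, led them (rank 59, 223 bp from its TSS and from that of CG46429). Next came Diap1, an inhibitor of caspases (rank 429), and hid, an activator of apoptosis (rank 802, 306 bp from its TSS). The apoptosis activators grim and skl had no pooled entry in their windows, and the best at rpr ranked 7418.

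The repair lists differed in their counts. Excision repair had 8 of 10 genes with a summit in the window and 7 at a TSS, led by Ercc1 (rank 727), Rrp1 (998) and Ogg1 (1635), whose peaks lay nearest to SMC2, gammaTub23C and Ppt1. Homologous recombination had 7 of 9 in the window but 2 of 9 at a TSS. Those in the window included Brca2 (rank 536, 7 bp from its TSS) and spn-B (1495, 1032 bp from its TSS and nearest to ATPsynE). Crosslink repair had 4 of 10 in the window and 3 of 10 at a TSS. The leading genes were mms4 (rank 834, 1537 bp from its TSS and nearest to CG12935), Gen (1534, nearest to Srp54k) and Fancm (1630, 276 bp from its TSS). End joining had 2 of 8 in the window and 1 of 8 at a TSS. The 2 in the window were DNAlig3 (rank 451, 1308 bp from its TSS) and Irbp, the fly Ku70 (2463, nearest to mgr). Telomere capping had 5 of 6 in the window and 4 of 6 at a TSS. It was led by the gene of heterochromatin protein HP1 (rank 36, 1869 bp from its TSS and nearest to CG8360). Next came cav (1268, nearest to twin) and ver (1625, nearest to Gcn5). Lists of 3 to 10 genes were not tested, and differences between them are described only.

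**Figure D4:**
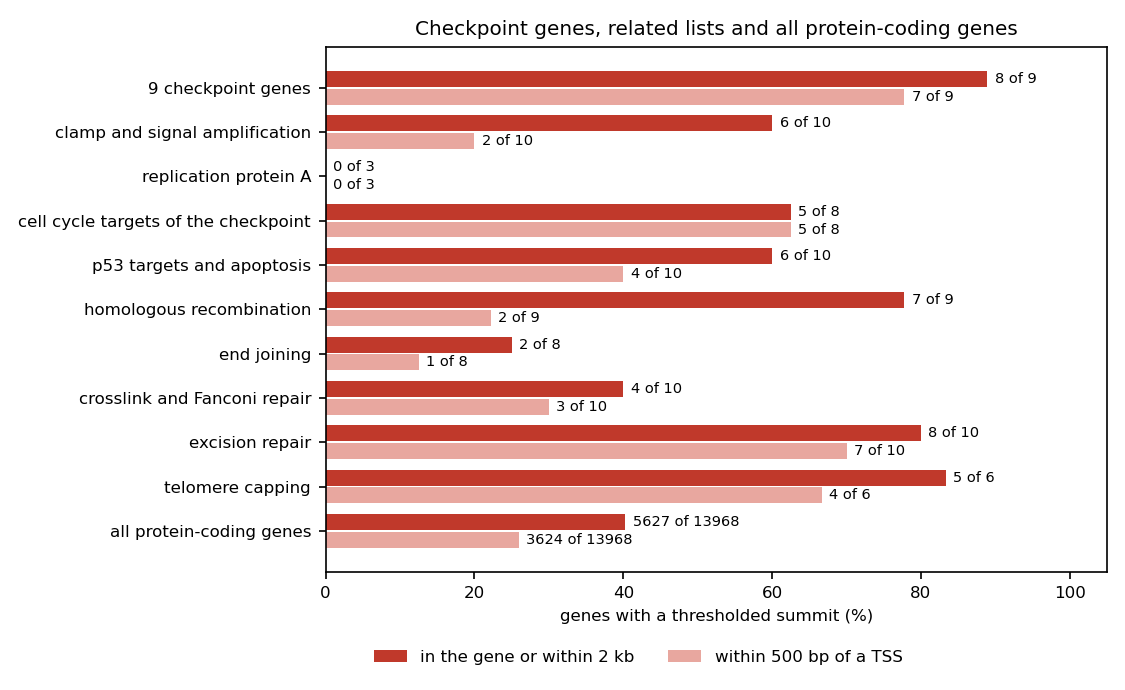
Percent of genes with a thresholded summit in the gene or within 2 kb (dark bars) and within 500 bp of a TSS (light bars), for the 9 checkpoint genes, 9 lists of related genes and all 13968 protein-coding genes, with counts at the bars. The checkpoint genes stand at 8 of 9 and 7 of 9, the replication protein A genes at 0 of 3.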

How the data were processed

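ChIP-seq peak lists of 2 biological replicates of 1 group were used. Per the deposited file manifests, each replicate list came from 1 library's alignments with a control. The pooled list used the alignments of both, with that control. The thresholded list was derived from these lists by the irreproducible discovery rate procedure. The control is not analysed here. The sources used here name no aligner or peak caller. The deposited signal value is the authors' own, on the scale of its list, and the deposited −log10 q-value was read from the same lines. No file holds read numbers, and the sequencing depth is therefore unknown.

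From these lists summits were assigned to genes of Ensembl release 115 on dm6 (assembly release 6), ranked by signal within a list, and matched between lists to the nearest summit within 100 bp. Lists on dm3 were not used. No p-value was computed. The members and gene lists were chosen with earlier results of these data known. The text names all 9 genes, neighbours by nearest TSS, and up to 3 genes per related list by signal, of which 1 is not reported here. Genes named for having no thresholded summit were picked after their values were seen. Functions were tested on simulated data. Scripts ran on Python 3.11.15 with pandas 2.3.3, numpy 2.4.6 and scipy 1.17.1, and plots were drawn with matplotlib 3.10.9.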

Additional observations from a re-analysis of the deposited data

How the results depend on the processing

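Leaving out either replicate, by taking the best 4599 entries of the other, gave 7 to 8 of the 9 genes with a summit in the window, 6 to 7 at a TSS, 12 to 14 summits and 42 to 44 related genes. The background stayed at 39.5% to 40.2% in the window and 25.2% to 26.2% at a TSS, and the median best rank of the 9 genes was 2323 to 2792, against 2247 in the pooled list. The gene lost without replicate 2 was mei-41. With gene bodies alone, 1 gene (grp), 3 summits and 13 related genes remained, against 13.5% of all protein-coding genes. In the 2299 strongest summits there were 5 genes (p53, tefu, mus304, nbs and mre11), 5 summits and 4 genes at a TSS, against 24.9% and 15.0%. By the nearest TSS alone there were 4 genes, 5 summits and 20 related genes, against 24.4%. With 5 kb on each side there were 8 of the 9 genes, against 53.4% of all protein-coding genes, and 20 summits. With 1 kb there were 7 of the 9 genes, without mre11, against 34.7%, and 9 summits. With pooled entries under a q-value of 0.05 all 9 genes had a summit, against 54.9% of genes in the window and 38.6% at a TSS. Within 250 bp of a TSS, 6 of the 9 genes had a summit, without tefu, against 22.1% of all protein-coding genes. Within 1000 bp, 7 of the 9 had one, against 28.9%. Over all annotated genes the background was 28.4% in the window and 16.4% at a TSS. The backgrounds for short genes (35.6%) and for genes with a close neighbour (41.3%) were chosen after seeing the data. Matching within 50 bp left 4 of the 9 best peaks found in both replicates, and the share of all summits under that rule was not computed. Any of the 6 motifs stood in 8 of 13 windows, against 60.1% of all thresholded windows. It stood in 5 of 13 with 50 bp on each side, against 37.2%, and in 12 of 13 with 250 bp, against 88.7%. At a member's TSS it stood in 5 of the 7 windows, and no share over other summits at a TSS was computed.

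No paired analysis was possible because the 2 samples form 1 group. The depth is unknown, so its part in the ranks was not tested.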

Other observations

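The 2 replicate lists differed in their entries around these genes, counterparts of thresholded summits included. Replicate 2 listed 34 entries in the 9 windows and replicate 3 listed 39, of which 18 and 16 had a q-value under 0.05. Over the whole lists of 30000 entries, 9439 of replicate 2 and 7650 of replicate 3 had such a q-value. At lok, replicate 2 listed 2 entries and replicate 3 listed 7, and at grp 12 and 8. The pooled list held 34 entries there, 13 of them thresholded.

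Just outside the windows, the nearest thresholded summit lay 2698 bp past the 3′ end of tefu, at the start of mRpS10, a mitochondrial ribosomal protein gene. With a signal of 1211.6 it ranked 15 in the thresholded list, far above both tefu summits. The next nearest outside summits lay 2941 bp from grp (rank 3455) and 3055 bp from p53 (rank 2834).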
